A study of Mus musculus with 12 samples.

Results

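Solute carriers are the membrane proteins that move amino acids, sugars, vitamins, nucleosides, metals and ions across the plasma membrane and the membranes of organelles. The genes described here were chosen by symbol alone, as every gene whose symbol begins with Slc and a digit in the deposited tables of 2 comparisons, with Slc16a3 left out. That gave 65 genes of the 3188 genes in either table: 26 of 1284 in the table of regulatory T (Treg) cells and 43 of 2186 in the table of microglia, with 4 genes in both.

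The series compared mouse cells in 4 groups of 3 libraries of bulk RNA sequencing. Treg cells, which hold other immune cells in check, came from the injured spinal cord or from the spleen of animals 14 days after spinal cord injury, so both Treg groups carry the injury. Primary microglia, the macrophages that reside in brain and spinal cord, here in culture, were unstimulated controls or had been co-cultured with Treg cells. Strain, age, the way Treg cells and microglia were purified, the origin of the Treg cells in the co-culture, its length, and whether replicate libraries stem from different animals or dishes are not given in the sources used here, so p-values cover only variation from library to library, in which technical variation cannot be set apart.

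Solute carriers are grouped into families by sequence, and a family mostly shares a kind of substrate. Slc39 proteins bring zinc and related metals into the cytosol and Slc30 proteins take zinc out of it, Slc7 proteins exchange amino acids, Slc19 proteins import folate and thiamine, and Slc40a1, ferroportin, is the only known iron exporter of mammalian cells. In macrophages and microglia, carriers of iron, arginine, glucose and lysosomal peptides take part in the response to activation, and in T cells carriers of amino acids, folate, lactate and nucleosides serve growth and division. The symbols of Slc9a3r1 and Slc9a3r2 meet the rule although these genes encode scaffold proteins that bind carriers and are no carriers themselves.

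The stretches before a transcript start of 4 zinc and copper carrier genes that were all higher in co-cultured microglia with the values as deposited are shown, because metal response elements are known to regulate zinc exporter genes in mice. With equal table totals the log2 fold change of Slc30a1 fell just below 0, as given below with its values. Each line gives the 250 bases before an annotated transcript start, 5′ to 3′ on the gene's own strand, from RefSeq (GRCm38.p6). Capitals mark the letters TGCNCNC, searched on both strands. This is a looser spelling of the core of the metal response element, TGCRCNC, in which R is A or G.
Slc30a1, chr1:191906531-191906780, strand +: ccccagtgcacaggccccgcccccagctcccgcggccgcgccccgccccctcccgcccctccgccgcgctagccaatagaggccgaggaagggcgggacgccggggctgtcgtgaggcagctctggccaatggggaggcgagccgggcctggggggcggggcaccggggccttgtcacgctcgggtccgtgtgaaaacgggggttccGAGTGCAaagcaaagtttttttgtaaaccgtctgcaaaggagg
Slc30a4, chr2:122702664-122702913, strand -: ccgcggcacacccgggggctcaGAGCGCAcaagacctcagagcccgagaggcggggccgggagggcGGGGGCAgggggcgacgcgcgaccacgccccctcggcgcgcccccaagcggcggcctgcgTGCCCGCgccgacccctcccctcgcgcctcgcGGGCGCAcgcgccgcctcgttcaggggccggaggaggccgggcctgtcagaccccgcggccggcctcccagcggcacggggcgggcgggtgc
Slc31a1, chr4:62360451-62360700, strand +: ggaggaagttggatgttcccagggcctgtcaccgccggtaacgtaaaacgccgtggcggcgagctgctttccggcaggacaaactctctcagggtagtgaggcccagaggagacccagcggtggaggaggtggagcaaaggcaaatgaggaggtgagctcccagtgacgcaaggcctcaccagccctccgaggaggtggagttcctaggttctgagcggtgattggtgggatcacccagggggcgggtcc
Slc31a2, chr4:62286179-62286428, strand +: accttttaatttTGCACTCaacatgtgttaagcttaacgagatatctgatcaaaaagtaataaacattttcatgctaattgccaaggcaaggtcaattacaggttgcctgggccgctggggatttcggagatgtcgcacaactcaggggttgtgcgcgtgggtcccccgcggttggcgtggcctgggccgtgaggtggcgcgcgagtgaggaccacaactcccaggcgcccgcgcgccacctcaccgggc
The loose spelling occurred 4 times in the stretch of Slc30a4, 1 time each in those of Slc30a1 and Slc31a2, and not in that of Slc31a1. Some of the matches of Slc30a4, such as TGCCCGC, do not meet the stricter spelling of the core. No 2 matches overlapped. The stretches shown for Slc30a1, Slc31a1 and Slc31a2 precede transcript starts that lie inside the annotated spans of these genes. Those of Slc30a1 and Slc31a1 thus lie partly within the span and that of Slc31a2 wholly. The matches of Slc30a1 and Slc31a2 lie inside the spans. The letters are common: 47.2% of 27025 genes with a promoter in the same table held at least 1 match in the 250 bases, and 28 of the 51 solute carrier genes that had a promoter there did (54.9%). A match describes the letters and is not a site. The genes shown and the motif were chosen after the values were seen and after other motifs had been searched. Slc40a1, Slc7a2, Slc4a11, Slc15a3 and Slc39a4 were among the 14 solute carrier genes without a sequence to print.

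Expression was deposited as FPKM, which scales fragments by transcript length and library size and thus allows levels of different genes to be compared within a table. Both tables held only genes that the authors had called changed, so that nearly every gene passes a test in advance. Of the Treg genes averaging at least 1 FPKM, 99.6% passed an adjusted p of 0.05 (limma on log2(FPKM + 1), Benjamini-Hochberg), 61.0% as higher in the injured cord and 38.6% as lower. In microglia all 1529 genes tested passed, 53.4% as higher and 46.6% as lower in co-culture. Calls of solute carrier genes and of the gene lists below are to be read against these shares, and genes without a row are not analysed here. Giving all libraries of a table equal totals moved the log2 fold changes of all tested genes by a median of -0.85 in Treg cells and -0.83 in microglia, and quantile normalization moved them by -0.37 and -0.26. Both scalings rest on selected genes. Sequencing depth is unknown, and the table totals are no library sizes.

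Genes listed as markers of other cells moved with the Treg comparison. Of 19 markers of myeloid cells and microglia, 6 had a row and 5 were tested. All 5 were higher in the spinal cord with the values as deposited, and Csf1r passed the filter through the cord alone. The 6 summed to 25.6 to 35.3 FPKM in the spleen libraries and 81.8 to 99.1 FPKM in the spinal cord libraries, and C1qb was listed at 0 in every spleen library. Neutrophil markers (2 of 11 with a row) summed to 4.22 to 9.77 and 28.4 to 83.0 FPKM, and those of endothelium and fibroblasts (3 of 11) to 39.4 to 44.4 and 163 to 410 FPKM, nearly all of it Ly6c1 (mean 34.6 and 298.7 FPKM). The oligodendrocyte marker Cnp, 1 of 10 with a row, had means of 52.3 and 191 FPKM. Cnp and Ly6c1 were thus well above 0 in the spleen libraries too, and their values cannot be assigned to oligodendrocytes or endothelium. Cd79b, the 1 B cell marker with a row, was listed at 0 in the spleen. The T cell markers Cd2, Ctla4 and Icos (3 of 17 with a row) summed to between 786.6 and 834.5 FPKM in the spleen and between 1786 and 2117 FPKM in the spinal cord. As only changed genes have a row, this sum cannot be read as an amount of T cells. In microglia, 7 of 10 tested myeloid markers were higher with the values as deposited and 3 lower. Among the lower markers, the fractalkine receptor gene Cx3cr1, which marks resting microglia, went from 137, 144 and 126 FPKM in the controls to 1.26, 1.36 and 1.74 FPKM in co-culture, and Tmem119, another microglia marker, from 9.86, 9.12 and 10.6 to 3.77, 4.27 and 3.72 FPKM. Cd14, the remaining lower marker, had means of 457 and 151 FPKM. Among the higher markers, the complement gene C1qb, which macrophages share, stood at 1639, 1632 and 1678 FPKM in the controls and 3624, 3712 and 3619 FPKM in co-culture. Aif1 (means of 31.1 and 113 FPKM) and Itgam (156 and 334 FPKM) were higher too. Markers of endothelium and fibroblasts (7 of 11 with a row) summed to 558 to 635 FPKM in the controls and 103 to 201 FPKM in co-culture, mostly Acta2, Col1a1 and Col1a2. Of 6 tested, 4 were lower and 2 higher, Dcn with means of 8.67 and 32.0 FPKM and Pecam1 with 1.50 and 6.30 FPKM. Pdgfrb, among the lower, passed the filter through the controls alone. T cell markers (4 of 17 with a row) summed to 11.98 to 12.9 and 3.12 to 3.27 FPKM, mostly Cd28 (mean 11.5 and 1.397 FPKM). As Cd28 was higher in the controls, which were not co-cultured, this sum cannot be read as an amount of T cells. Lck (0.247 and 0.557 FPKM) and Ikzf2 (0.437 and 1.19 FPKM) stood higher in co-culture and Cd5 (0.287 and 0.0333 FPKM) lower. All of them were below the filter and not tested. The part of these cells and states in the results was not tested. In bulk samples, fewer cells of a type and less RNA per cell cannot be told apart.

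In Treg cells of the injured spinal cord, the 3 vitamin carriers with a row, the nucleoside carrier Slc29a1 and the lactate carrier Slc16a1 stood lower than in the spleen, and the lysosomal peptide carrier Slc15a3 stood higher. Of 26 solute carrier genes, 23 were tested, of which 10 were called higher (43.5%, against 61.0% of all genes tested) and 13 lower (56.5%, against 38.6%). Their median log2 fold change was -1.14, beside 0.95 over all genes tested, while the median size regardless of sign was 1.319, beside 1.296 over all. Of the tested genes, Slc30a3 passed the filter on low values through its higher group alone. The groups did not overlap in any of the 26 genes, as in 92.7% of all rows of the table. All 13 lower calls were kept with equal totals and with quantile normalization, while 1 and 7 of the 10 higher calls were kept.

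**Figure D1:**
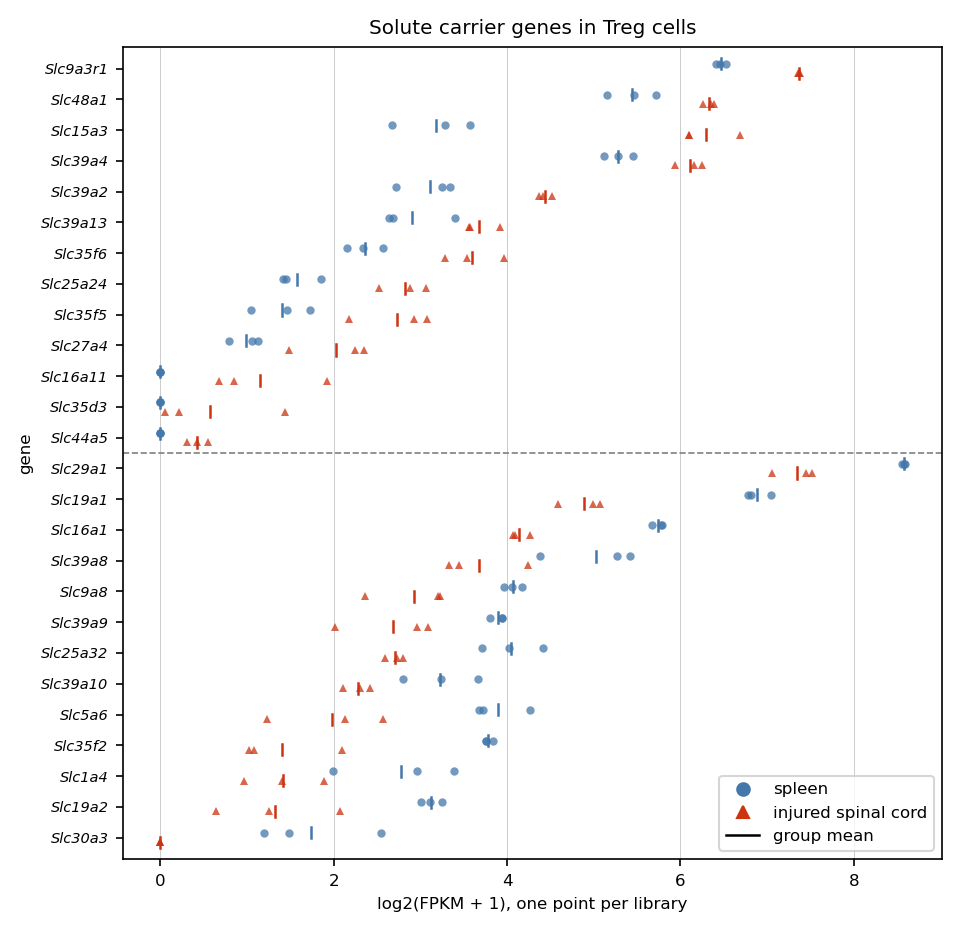
Level of each of the 26 solute carrier genes in the Treg cell libraries, as log2(FPKM + 1), with 1 point per library, circles for the spleen, triangles for the injured spinal cord and bars for group means. The 13 genes above the dashed line were higher and the 13 below it lower in the spinal cord, and Slc15a3 shows the widest gap among the higher genes.

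All 3 carriers of vitamins with a row fell in the spinal cord. Slc19a1 (NCBI gene 20509, chromosome 10, 77032269 to 77050432, GRCm38.p6), the reduced folate carrier of the plasma membrane, measured 109, 131 and 112 FPKM in spleen libraries 1, 2 and 3, while the injured cord gave 32.7, 23.1 and 30.8 FPKM. The lowest spleen library was well above the highest spinal cord library, and the log2 fold change was -1.995 (SE 0.18, limma adjusted p = 3.16e-06). Slc5a6 (chromosome 5, 31036036 to 31048924), the carrier of biotin and pantothenate, went from 18.3, 12.2 and 11.8 FPKM to 4.94, 1.34 and 3.39 FPKM, a 4.37-fold lower mean. Slc19a2, a thiamine carrier, went from 7.64, 8.51 and 7.04 FPKM to 3.22, 0.56 and 1.38 FPKM, so that its spinal cord libraries spread widely below the spleen. Slc25a32, the mitochondrial carrier for folate and FAD, which was classed with the mitochondrial carriers, fell as well, from 15.9 ± 4.16 to 5.54 ± 0.476 FPKM (SD, n = 3 each; log2 fold change -1.34, SE 0.28). With equal totals the log2 fold changes of these 4 genes lay between -2.91 and -2.18.

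Among carriers of nucleosides and of monocarboxylates, 1 gene of each class was tested and fell, and the other row of each class, too low to be tested, stood higher in the cord. Slc29a1 (gene 63959, chromosome 17, 45585200 to 45599618), which equilibrates nucleosides such as adenosine across the plasma membrane, was the most abundant solute carrier gene of the table in the spleen, at 375, 384 and 382 FPKM, and came down to 173.5, 132 and 183 FPKM. Its mean was 2.34-fold lower (log2 fold change -1.23, SE 0.15, limma adjusted p = 2.48e-05). Slc16a1 (gene 20501, chromosome 3, 104638664 to 104658462), the proton-coupled carrier of lactate and pyruvate, fell from 49.97, 53.8 and 54.1 FPKM to 16.0, 18.2 and 15.8 FPKM, with little spread in either group. Slc16a11 of the same family and Slc35d3 of the nucleotide sugar family were listed at 0 in all spleen libraries and reached 0.81, 2.78 and 0.60 and 0.04, 1.71 and 0.16 FPKM in the cord, too low to be tested.

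Metal carriers were split. Of 8 genes with a row, 4 were called lower and 4 higher with the values as deposited, of which 3 turned to just below 0 with equal totals, and the median log2 fold change was -0.09. Among the Slc39 importers, Slc39a8, a carrier of zinc and manganese, fell from 37.4, 19.9 and 41.9 FPKM to 17.96, 9.03 and 9.93 FPKM, with spleen library 2 close to spinal cord library 1. Slc39a10, an importer of the plasma membrane, was 2.24-fold lower, and Slc39a9, a zinc carrier of the Golgi, 2.40-fold lower. In the other direction, Slc39a2 (gene 214922, chromosome 14, 51893082 to 51896745), a zinc importer of the plasma membrane, rose from 5.59, 9.15 and 8.54 FPKM to 21.8, 19.6 and 20.4 FPKM. Slc39a4 (gene 72027, chromosome 15, 76612383 to 76618506), the intestinal zinc importer whose loss causes acrodermatitis enteropathica in people, rose 1.80-fold with the values as deposited, from 42.9, 37.8 and 33.7 FPKM to 75.2, 60.3 and 70.4 FPKM. Slc39a13, another Golgi zinc carrier, was 1.78-fold higher with the values as deposited, a limma call that ended without spleen library 1 (adjusted p = 0.0779), without spleen library 2 (0.0751) and without spinal cord library 2 (0.0752).

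With equal totals the log2 fold changes of Slc39a4, Slc39a13 and Slc48a1 lay just below 0, at -0.08, -0.06 and -0.03, and Slc39a2 stood at 0.47 without a call. Slc48a1, which moves haem out of the lysosome and was 1.85-fold higher with the values as deposited, kept its call with quantile normalization. Slc30a3, which loads zinc into vesicles, had spleen values of 1.29, 1.81 and 4.82 FPKM and was listed at 0 in every spinal cord library. Its log2 fold change of -1.74 depends on the pseudocount and was -4.56 with a pseudocount of 0.1. Among genes listed as iron and zinc partners, which are not carriers of this family, 5 of 22 had a row, with 3 called higher and 1 lower. Over all genes tested, 61.0% were higher. Tfrc, the transferrin receptor that brings iron into cells, fell 5.58-fold, from 167.5, 165 and 132 FPKM to 41.5, 24.3 and 17.7 FPKM. Hif1a, a subunit of the hypoxia-inducible factor that does not itself handle these metals, rose 4.395-fold.

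Slc15a3 (gene 65221, chromosome 19, 10842544 to 10857915), which exports histidine and dipeptides from lysosomes, had the largest rise of the tested solute carrier genes in Treg cells. It went from 10.9, 5.38 and 8.75 FPKM to 67.6, 102 and 67.8 FPKM, so that no spinal cord library came near the spleen, and this put it at rank 14 of 26 by level in the spleen and rank 4 in the spinal cord. The log2 fold change was 3.12 (SE 0.27, limma adjusted p = 2.06e-06) and 2.24 with equal totals. Slc15a3 is also abundant in the microglia table. Of 5 tested myeloid markers, all higher in the cord with the values as deposited, Cd14 rose the most. It went from 0, 2.00 and 1.2 FPKM to 24.5, 26.2 and 18.1 FPKM. C1qb, not tested, stood at 1.68, 1.21 and 0.73 FPKM in the cord, and Csf1r had a mean of 2.85 FPKM there. The part of other cells in the rise of Slc15a3 was not tested. Slc1a4, an exchanger of alanine, serine and cysteine, fell from 2.98, 6.76 and 9.44 FPKM to 1.65, 0.95 and 2.70 FPKM, and its spleen libraries differed more among themselves than the nearest libraries of the groups did. In the list of the amino acid response, 6 of 21 genes had a row, with 4 higher and 1 lower among 5 tested. Over all genes tested, 61.0% were higher. Chac1 and Castor2, among the higher, passed the filter through the cord alone. Chac1, which degrades glutathione, rose from 0, 1.18 and 1.06 FPKM to 4.33, 6.95 and 5.21 FPKM, and Castor1, an arginine sensor of the mTORC1 pathway, rose 4.13-fold. Of the list of cystine and glutathione partners, 2 of 17 genes had a row, Chac1 and Srxn1, and both were higher. Srxn1, sulfiredoxin, went from 0.13, 1.01 and 0.65 to 2.36, 6.90 and 3.46 FPKM. Both genes passed the filter through the cord alone, so only a higher call was open to them.

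The remaining genes were single members of their classes or had no settled substrate. Slc35f2 fell the most of the tested solute carrier genes in Treg cells on the log2(FPKM + 1) scale, from 12.5, 13.3 and 12.5 FPKM to 1.03, 1.12 and 3.27 FPKM (log2 fold change -2.38, SE 0.34, limma adjusted p = 6.08e-05), with spinal cord library 3 above the other two. With a pseudocount of 0.1, Slc30a3, listed at 0 in the cord, fell more. Slc35f5 and Slc35f6, orphan relatives of it, rose 3.44-fold and 2.72-fold, to 5.86 ± 2.07 and 11.3 ± 2.99 FPKM (SD, n = 3). Slc9a8, a sodium and proton exchanger of the Golgi, was 2.29-fold lower. Slc25a24, the mitochondrial carrier of ATP-magnesium and phosphate, rose 3.07-fold to 6.17 ± 1.33 FPKM, and Slc27a4, a fatty acid carrier with acyl-CoA synthetase activity, rose 3.21-fold to 3.21 ± 1.24 FPKM. None of the rises of Slc35f5, Slc35f6, Slc25a24 and Slc27a4 was called with equal totals, where their log2 fold changes lay between 0.43 and 0.64. With the values as deposited the scaffold gene Slc9a3r1 climbed from 83.9, 87.1 and 90.9 FPKM to 162.5, 165 and 164 FPKM, and its log2 fold change was -0.03 with equal totals and 0.25 with quantile normalization, without a call in either. Slc44a5, a choline carrier relative, was listed at 0 in the spleen and had 0.47, 0.24 and 0.34 FPKM in the cord. Among transporters and pumps without an Slc symbol, 4 of 52 had a row, 2 higher and 2 lower: Mfsd12, a lysosomal cysteine carrier, fell 3.34-fold and Abcb1b, a drug efflux pump, 2.18-fold.

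In microglia co-cultured with Treg cells, the arginine carrier Slc7a2 rose the most and the iron exporter Slc40a1 and the endosomal ion exchanger Slc9a9 were among those that fell. Of 43 solute carrier genes, 34 were tested, of which 18 were called higher (52.9%, against 53.4% of all genes tested) and 16 lower (47.1%, against 46.6%), shares close to the background of the table. The median log2 fold change was 0.70, beside 0.74 over all genes tested, and the median size regardless of sign 1.28 for both. Of the tested genes, 5 passed the filter through their higher group alone. The groups did not overlap in 42 of the 43 genes, as in 99.5% of all rows, and the exception was Slc39a2 (0.23, 0.39 and 0.27 against 0.63, 0.56 and 0.37 FPKM). All 16 lower calls were kept with equal totals and with quantile normalization, and 11 and 17 of the 18 higher calls were kept.

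**Figure D2:**
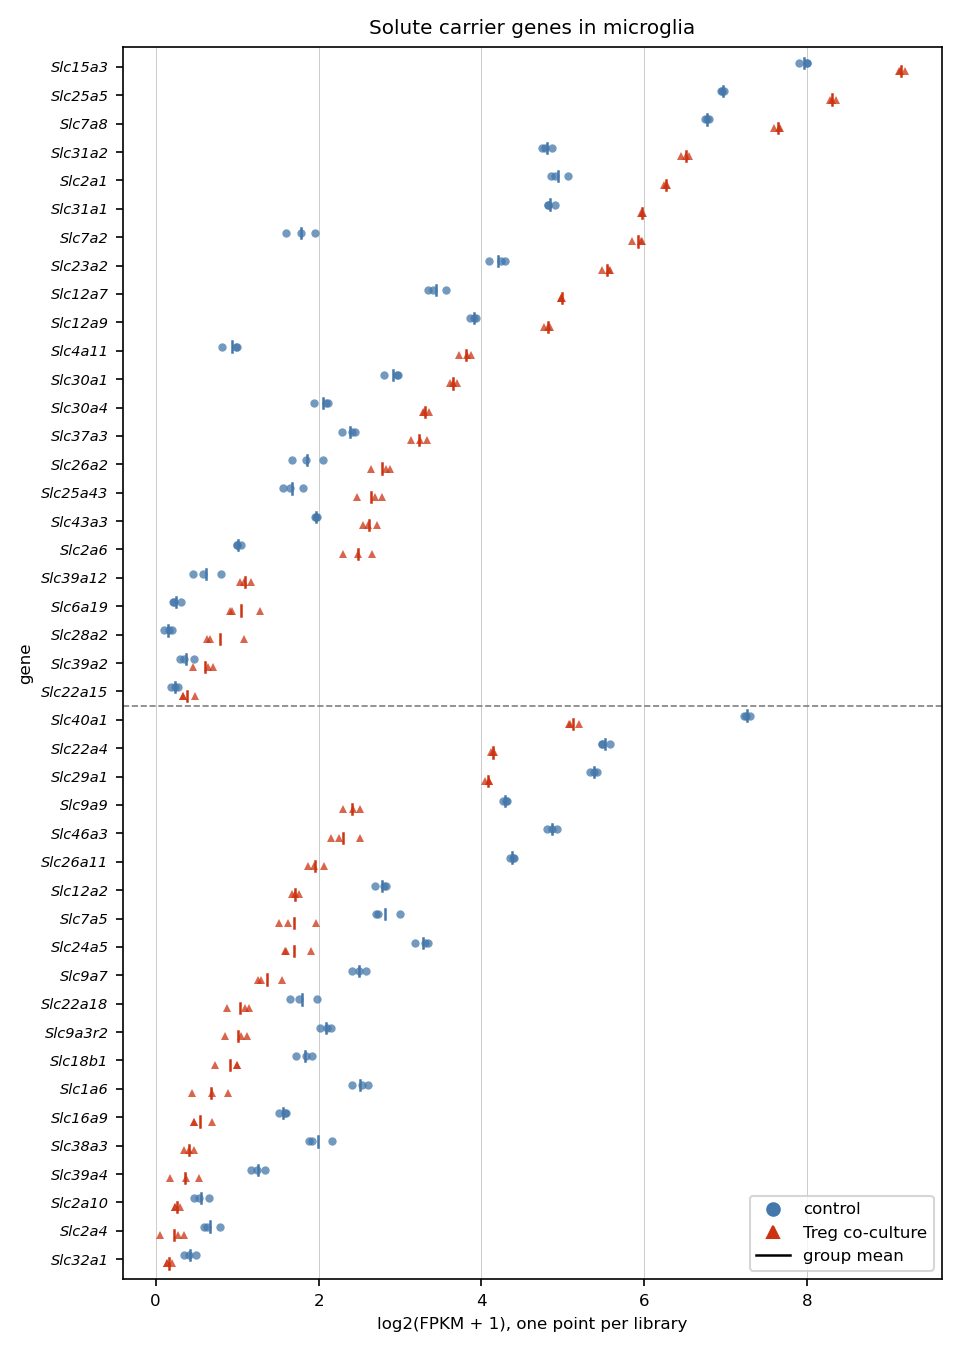
Level of each of the 43 solute carrier genes in the microglia libraries, as log2(FPKM + 1), with 1 point per library, circles for controls, triangles for Treg co-culture and bars for group means. The 23 genes above the dashed line were higher and the 20 below it lower in co-culture, and Slc7a2 and Slc4a11 show the widest gaps among the higher genes.

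Amino acid carriers moved in both directions, with 3 of 6 tested genes higher and 3 lower. Slc7a2 (gene 11988, chromosome 8, 40862341 to 40922070), which imports arginine, lysine and ornithine, stood at 2.89, 2.44 and 2.02 FPKM in controls 1, 2 and 3 and at 61.5, 61.3 and 56.5 FPKM in co-culture. Its mean rose 24.4-fold (log2 fold change 4.15, SE 0.10, limma adjusted p = 2.24e-08), and it moved from rank 30 to rank 7 of 43 by level. Slc15a3, the lysosomal histidine and peptide carrier, was the most abundant solute carrier gene in both groups, at 254, 255 and 237 FPKM in the controls and 564, 586 and 559 FPKM in co-culture, with a log2 fold change of 1.19 that was 0.24 with equal totals. Slc7a8 (gene 50934, chromosome 14, 54722215 to 54781886), the light chain of the neutral amino acid exchanger LAT2, went from 110, 108 and 106 FPKM to 202, 201 and 192 FPKM, while its log2 fold change was -0.08 with equal totals and -0.05 with quantile normalization, without a call in either.

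Slc7a5, the light chain of the related exchanger LAT1, moved the other way, from 6.98, 5.64 and 5.53 FPKM to 1.86, 2.08 and 2.90 FPKM (log2 fold change -1.11, SE 0.14, limma adjusted p = 1.05e-04). Slc38a3, a glutamine carrier, fell 9.13-fold, from 3.5, 2.68 and 2.77 FPKM to 0.33, 0.27 and 0.38 FPKM, and Slc1a6, a glutamate carrier known from Purkinje neurons, fell 7.74-fold from 4.72 ± 0.384 to 0.610 ± 0.245 FPKM. Both genes passed the filter through the controls alone. The vesicular GABA carrier gene Slc32a1 (0.337 ± 0.0702 FPKM in the controls and 0.117 ± 0.0289 in co-culture) and the neutral amino acid carrier gene Slc6a19 (0.190 ± 0.0436 and 1.08 ± 0.312 FPKM) were below the filter. Aqp4, the 1 astrocyte marker with a row, dropped from 4.38, 2.72 and 3.24 FPKM to 0.70, 1.02 and 2.07 FPKM, and its relation to the falls of Slc38a3 and Slc1a6 was not tested. In the amino acid response list, 7 of 21 genes had a row, with 2 higher and 4 lower among 6 tested. Castor1, the arginine sensor of the mTORC1 pathway, fell 2.95-fold, and Sesn1, a sestrin of the same pathway, 2.68-fold. In the list of cystine and glutathione partners, 3 of 4 tested genes fell, and Ggt5, which was higher, passed the filter through co-culture alone. The counts of both lists stand beside 46.6% lower over all genes tested. Srxn1, sulfiredoxin, was at 96.1, 94.5 and 107 FPKM in the controls and 34.1, 33.9 and 34.3 FPKM in co-culture. Gclm, a subunit of the enzyme that starts glutathione synthesis, was 2.45-fold lower.

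Of 8 metal carriers 5 were tested, of which 1 was lower and 4 were higher with the values as deposited, Slc30a1 among them at -0.12 with equal totals. Slc40a1 (gene 53945, chromosome 1, 45908070 to 45926532), ferroportin, fell from 156, 151 and 148.5 FPKM in the controls to 35.8, 33.1 and 32.6 FPKM in co-culture, a 4.48-fold lower mean (log2 fold change -2.13, SE 0.05, limma adjusted p = 2.24e-08). It went from rank 2 to rank 9 by level, and its fall was -3.08 with equal totals and -2.96 with quantile normalization. The copper carriers were higher: Slc31a1 (gene 20529, chromosome 4, 62360583 to 62391769), the copper importer of the plasma membrane, went from 29.0, 27.2 and 27.2 to 62.0, 61.0 and 61.5 FPKM. Slc31a2 (gene 20530, chromosome 4, 62280393 to 62298412), its relative in endosomes and lysosomes, went from 25.8, 26.6 and 28.2 to 92.9, 86.5 and 90.1 FPKM. The 2 copper carriers thus had like levels in the controls and separate ones in co-culture.

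Both zinc exporters with a row rose with the values as deposited. Slc30a4, which moves zinc into vesicles, rose 2.83-fold to 8.93 ± 0.290 FPKM, and Slc30a1, the zinc exporter of the plasma membrane and a known target of the metal-responsive factor MTF1, 1.77-fold to 11.6 ± 0.345 FPKM. With equal totals Slc30a1 stood at -0.12 without a call, while Slc30a4, Slc31a1 and Slc31a2 kept theirs at log2 fold changes of 0.46, 0.19 and 0.77. The importers Slc39a12 (0.537 ± 0.188 FPKM in the controls and 1.14 ± 0.107 in co-culture), Slc39a2 and Slc39a4 were below the filter, and Slc39a4 went down, from 1.37, 1.26 and 1.54 FPKM to 0.13, 0.30 and 0.44 FPKM. Among 22 genes listed as iron and zinc partners 5 had a row, and all 4 tested rose with the values as deposited. Over all genes tested, 53.4% were higher. Hif1a rose 3.72-fold, from 39.0, 36.4 and 33.5 to 141, 135.5 and 128 FPKM. Lcn2, which binds iron-carrying siderophores, went from 3.43, 3.26 and 2.38 to 10.4, 9.40 and 21.1 FPKM, highest in co-culture library 3. Mt2, a metal-binding metallothionein induced through MTF1, went from 62.5, 55.2 and 62.3 to 121, 139.5 and 189 FPKM (this gene was named after its values were seen).

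Carriers of sodium, potassium, chloride, calcium and protons moved in both directions, with 5 of 9 tested genes lower and 4 higher with the values as deposited, of which Slc12a9 stood at -0.0025 with equal totals. Slc9a9 (gene 331004, chromosome 9, 94669557 to 95230453), the sodium and proton exchanger of recycling endosomes, fell from 18.8, 18.7 and 18.2 FPKM to 4.34, 4.71 and 3.91 FPKM (log2 fold change -1.88, SE 0.07, limma adjusted p = 1.70e-07), and Slc9a7, its relative of the trans-Golgi network, was 2.92-fold lower. Slc26a11 (gene 268512, chromosome 11, 119355509 to 119381076), an anion carrier described for sulfate and chloride, fell 6.84-fold from 19.4, 20.0 and 20.1 FPKM to 2.66, 2.85 and 3.18 FPKM, whereas the sulfate carrier gene Slc26a2 rose 2.22-fold. Slc24a5, a potassium-dependent sodium and calcium exchanger best known from pigment cells, fell 3.87-fold to 2.26 ± 0.419 FPKM.

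Slc4a11 (gene 269356, chromosome 2, 130684107 to 130697519), a proton-conducting relative of the bicarbonate carriers known from the corneal endothelium, rose 14.3-fold, from 0.99, 0.98 and 0.76 FPKM to 12.2, 13.6 and 13.2 FPKM (log2 fold change 2.87, SE 0.08, limma adjusted p = 3.92e-08). It passed the filter through co-culture alone. Among cation-chloride cotransporters, Slc12a2, the sodium, potassium and chloride importer NKCC1, fell 2.57-fold from 6.11, 6.01 and 5.46 to 2.19, 2.38 and 2.28 FPKM, and Slc12a7, the potassium and chloride exporter KCC4, rose 3.11-fold from 10.8, 9.63 and 9.11 to 30.6, 30.9 and 30.5 FPKM. Slc12a9, an orphan of the family, rose 1.94-fold with the values as deposited.

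All 3 tested genes of the class of sugars and sugar phosphates, assigned by family, rose with the values as deposited. Slc2a1 (gene 20525, chromosome 4, 119108745 to 119137330), the glucose carrier GLUT1, went from 28.0, 28.9 and 32.5 FPKM to 74.7, 75.8 and 76.6 FPKM (log2 fold change 1.32, SE 0.06, limma adjusted p = 4.96e-07). Slc2a6, the lysosomal hexose carrier GLUT6 of macrophages, rose 4.51-fold, from 1.07, 1.00 and 1.00 FPKM to 4.61, 3.93 and 5.30 FPKM, and Slc37a3, a relative of the glucose-phosphate carriers, 2.00-fold to 8.45 ± 0.645 FPKM. With equal totals Slc2a1 and Slc2a6 kept their calls at 0.38 and 0.84 on the log2 scale and Slc37a3 lost its own at 0.04. The insulin-responsive carrier gene Slc2a4 and Slc2a10 were below the filter and stood lower in co-culture, at 0.173 ± 0.119 and 0.197 ± 0.0289 FPKM, against 0.597 ± 0.117 and 0.467 ± 0.0929 FPKM in the controls.

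The vitamin C carrier gene Slc23a2 (gene 54338, chromosome 2, 132052496 to 132145320) rose from 18.6, 17.9 and 16.0 to 46.2, 46.8 and 43.5 FPKM, a limma call that held with equal totals at a log2 fold change of 0.41. Mitochondrial carriers rose as well. Slc25a5 (gene 11740, chromosome X, 36795597 to 36798808), the ADP and ATP exchanger of the inner membrane, went from 123, 122 and 125.5 FPKM to 314, 309 and 325 FPKM (log2 fold change 1.35, and 0.40 with equal totals), the second highest level of the family in co-culture, and Slc25a43, an orphan of the family, rose 2.40-fold to 5.28 ± 0.671 FPKM, a call that was lost with equal totals (adjusted p = 0.0827, limma). Mpc1, a subunit of the mitochondrial pyruvate carrier outside the Slc25 family (named after its values were seen), moved the other way, from 187, 185 and 197 to 70.3, 66.0 and 69.4 FPKM.

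Of 2 tested nucleoside and nucleobase carriers 1 was lower and 1 higher with the values as deposited, and both tested carriers of the monocarboxylate and organic ion class were lower. Slc29a1, the nucleoside carrier, fell from 39.2, 40.8 and 41.7 FPKM to 15.5, 16.1 and 16.0 FPKM, and the purine nucleobase carrier gene Slc43a3 rose 1.78-fold with the values as deposited but stood at -0.10 with equal totals. Slc28a2, which imports purine nucleosides together with sodium, was below the filter at 0.113 ± 0.0404 FPKM in the controls and 0.753 ± 0.318 FPKM in co-culture. Slc22a4 (gene 30805, chromosome 11, 53983115 to 54030040), the ergothioneine carrier OCTN1, fell from 43.7, 43.5 and 47.0 FPKM to 16.4, 16.6 and 16.8 FPKM. Slc16a9 of the monocarboxylate family fell 4.29-fold to 0.457 ± 0.133 FPKM, and the polyamine carrier gene Slc18b1 2.89-fold to 0.883 ± 0.202 FPKM, and both passed the filter through the controls alone. Slc22a15, an organic ion carrier, was below the filter in both groups at no more than 0.40 FPKM.

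Slc46a3 (gene 71706, chromosome 5, 147875897 to 147894861), a lysosomal carrier, had the largest fall of the tested solute carrier genes in microglia on the log2(FPKM + 1) scale, while Slc38a3 and Slc1a6 had larger ratios of mean FPKM and, with a pseudocount of 0.1, larger log2 falls. It stood at 27.0, 29.5 and 28.2 FPKM in the controls and 4.68, 3.77 and 3.45 FPKM in co-culture (log2 fold change -2.56, SE 0.10, limma adjusted p = 1.66e-07). Slc22a18 was 2.36-fold and the scaffold gene Slc9a3r2 3.22-fold lower. Among transporters and pumps without an Slc symbol, 14 of 52 had a row. Of 12 tested, 2 were higher and 10 lower, while 46.6% of all genes tested were lower. Abcb4, Atp2a3 and Sv2a, among the lower, passed the filter through the controls alone. Slco2b1, an organic anion carrier, fell 7.20-fold, from 21.0, 22.3 and 20.7 to 3.02, 2.82 and 3.05 FPKM, and Ank, which exports pyrophosphate and ATP, 5.82-fold.

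**Figure D3:**
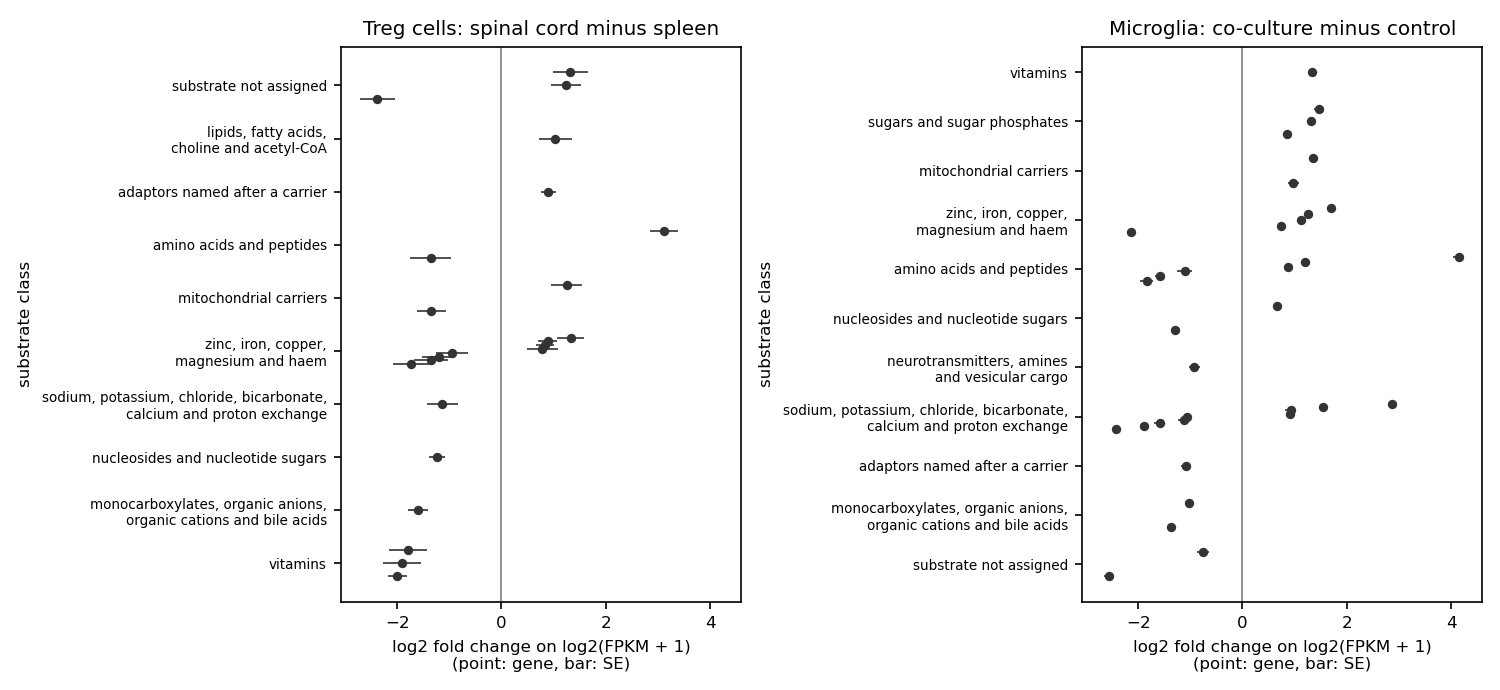
Log2 fold change on the log2(FPKM + 1) scale of each tested solute carrier gene by substrate class, spinal cord minus spleen in Treg cells (left) and co-culture minus control in microglia (right), with bars for SE (n = 3 libraries per group). In Treg cells all 3 vitamin carriers lie below 0, and in microglia all 3 genes of the class of sugars and sugar phosphates lie above it. Metal and amino acid carriers lie on both sides in both panels.

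The 4 genes listed in both tables were measured in separate libraries, and the tables were normalized separately. Slc15a3 was higher and Slc29a1 lower in both comparisons, with log2 fold changes of 3.12 and 1.19 for Slc15a3 and -1.23 and -1.30 for Slc29a1, in Treg cells and microglia in turn. Slc39a2 was higher in both but below the filter in microglia. Slc39a4 went in opposite directions, up in the spinal cord with the values as deposited (-0.08 with equal totals) and down in co-culture from a level near 1 FPKM. The difference between the comparisons was not tested.

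Some of the genes lie next to each other in the genome (GRCm38.p6). In all, 4 pairs within a table lay less than 100 kb apart, and both members of each pair were on the same side with the values as deposited. In microglia, Slc31a2 and Slc31a1 on chromosome 4 were 62.2 kb apart, Slc25a43 and Slc25a5 on chromosome X 18.3 kb, and Slc6a19 and Slc12a7 on chromosome 13 32.3 kb, with no protein-coding gene of the RefSeq table wholly between them, and all 6 genes were higher. In Treg cells, Slc5a6 and Slc30a3 on chromosome 5 were 37.2 kb apart with Cad between them, and both were lower. The pairs were looked for after the values were seen, and the share of same-side pairs among other neighbouring genes was not counted. Slc6a19 was below the filter, and the call of Slc25a43 was lost with equal totals.

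**Figure D4:**
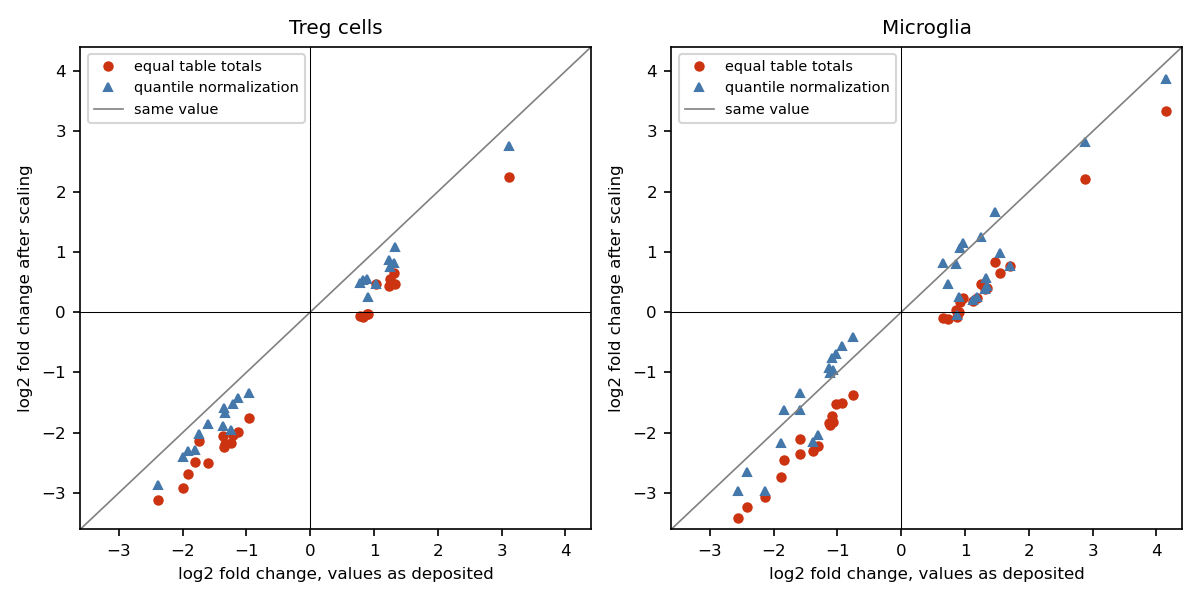
Log2 fold change of each tested solute carrier gene with the values as deposited (x axis) against the same after scaling (y axis), circles for equal table totals and triangles for quantile normalization, in Treg cells (left) and microglia (right). Genes that were lower stay below 0 in both panels, and with equal totals several small rises move to or just below 0, while with quantile normalization all tested genes that were higher except Slc7a8 stay above it, and Slc15a3 in Treg cells and Slc7a2 and Slc4a11 in microglia stay well above 0 under both.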

How the data were processed

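Messenger RNA was sequenced in 12 libraries, 3 in each of 4 groups, which were taken from the sample titles. The authors deposited FPKM values with 2 decimals in 1 table per comparison, with a log2 fold change and a Q value (an adjusted p-value), per the file headers; the submitters' processing notes list Bowtie2, RSEM 1.3.1, DESeq2 1.4.5 and GRCm38.p6 and give no roles. As the values show, the authors kept only genes whose log2 fold change reached 1 in size with a Q value below 0.05, so totals and adjusted p-values describe selected genes. The microglia fold change column is headed with a word that no label uses, and in all 2186 genes its sign was that of co-culture minus control. No value of the authors' comparisons is printed here. Depth is unknown, and no 2 libraries of a group were copies (at most 3.39% of rows had equal values above 0).

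Each table was fitted whole with limma 3.58.1 (R 4.3.3) on log2(FPKM + 1) with a mean-variance trend, for genes with a mean of at least 1 FPKM over 6 libraries (1072 and 1529 genes), with two-sided p-values adjusted by Benjamini-Hochberg over those genes and a threshold of 0.05. The log2 scale with a pseudocount of 1 understates changes of low genes. Folds are ratios of mean FPKM. The fit was tested on simulated data in which, unlike in these tables, most genes did not change. That test therefore does not cover a table of selected genes. Alternatives were a pseudocount of 0.1, no filter, a mean of at least 5 FPKM, equal table totals, quantile normalization, a replicate block and leaving out each library. Substrate classes follow the family, corrected, after the rows were seen, for 10 genes whose substrate differs from their family's or is not settled. All Treg rows were to be named, and in microglia the 12 largest rises and falls, the largest of each class and the genes of both tables (27 genes); the others are given so that each gene is accounted for. Partner lists are represented by their 2 largest changes. Members and lists were chosen with earlier results of these data known. Positions and promoters were matched by NCBI gene ID to RefSeq GRCm38.p6 (all solute carrier genes for positions, 51 of 65 for promoters). Python 3.11.15, pandas 2.3.3, numpy 2.4.6 and matplotlib 3.10.9 did the rest.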

Additional observations from a re-analysis of the deposited data

How the results depend on the processing

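The 13 lower calls in Treg cells and the 16 in microglia were kept under every alternative that tested all members, and the stricter filter of at least 5 FPKM tested 10 and 7 of them. That filter left 7 lower calls in microglia because fewer genes were tested. With equal table totals 1 higher call was left in Treg cells and 11 in microglia. The log2 fold changes that then fell below 0 were those of Slc39a13 (-0.060), Slc39a4 (-0.085), Slc48a1 (-0.031) and Slc9a3r1 (-0.027) in Treg cells and of Slc12a9 (-0.0025), Slc30a1 (-0.12), Slc43a3 (-0.10) and Slc7a8 (-0.081) in microglia, and Slc7a8 was at -0.052 with quantile normalization. The cause was not tested, though equal totals over selected genes remove a shared shift by construction. Leaving out 1 library gave 9 to 10 higher and 13 lower calls in Treg cells and 18 and 16 in microglia, and Slc39a13 was the call lost. Over all genes tested, the share of higher among called genes went from 61.2% to 39.1% in Treg cells and from 53.4% to 42.4% in microglia with equal totals. Without a filter, 748 higher and 450 lower genes were called in Treg cells, and in microglia 1021 and 1150, where 712 were lower with it. Same-numbered libraries did not deviate together in every pair (correlations of -0.003, -0.04 and -0.05 in Treg cells and -0.04, 0.15 and 0.17 in microglia). With 3 libraries per group, these correlations cannot decide whether same-numbered libraries share an animal or dish. A replicate block left the counts at 10 and 13 and at 18 and 16. Depth is unknown, so what it limits cannot be given.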
